A study of Rattus norvegicus with 12 samples.

Results

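Transcripts of 10 genes of transforming growth factor β (TGF-β) signalling were followed in cultured rat theca-interstitial cells, which make androgens in the follicle wall and ovarian stroma, under 2 inflammatory stimuli. The genes were chosen by symbol, with earlier results of these data known. They were the ligands Tgfb1, Tgfb2 and Tgfb3 and the receptors Tgfbr1, Tgfbr2 and Tgfbr3. The others were the latent TGF-β binding protein genes Ltbp1 and Ltbp2, and the intracellular mediators Smad3 and Smad7. All 10 were found among the 30045 symbols of the deposited count table, and all 10 passed the filter on low counts that left 17330 genes for testing. Cells came from wild type female Sprague Dawley rats at postnatal day 30 and were grown on human fibronectin in McCoy's 5A medium. After 48 h with vehicle (control), with rat interleukin-1β (IL-1β, a cytokine of inflammation) or with lipopolysaccharide (LPS, a bacterial cell wall component, 1 µg/ml), polyadenylated RNA was sequenced in 4 libraries per group. The dose of IL-1β is not given in the sources used here, and neither is whether the 4 cultures of a group came from separate animals. P-values therefore measure only the spread between these libraries, which may be technical.

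TGF-β is secreted as a latent complex. Its propeptide holds the ligand inactive, and LTBP1 tethers that complex to fibrillin and fibronectin in the matrix until integrins or proteases release it. Free ligand joins the type II receptor TGFBR2 with the type I receptor TGFBR1, which phosphorylates SMAD2 and SMAD3, and SMAD7, itself induced by TGF-β, blocks that step. In the ovary the ligands are made by theca and granulosa cells and act on steroid production, matrix deposition and the contractile phenotype of stromal cells.

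Sequences before the starts of 5 of the genes are given because these genes moved in different directions: Tgfbr1 was higher with both stimuli, Tgfb1 with IL-1β, and Tgfb3, Ltbp1 and Ltbp2 were lower with both. Each line holds the 250 bases before the RefSeq start on rat build GRCr8, read 5′ to 3′ in the direction of transcription. Capitals mark matches on either strand to any of 7 motifs. The cyclic AMP response element (CRE) was searched as TGACGTCA, and its core as TGACG, which also lies inside every full CRE. The AP-1 motif of Fos and Jun proteins was searched as TGANTCA and the TATA box of core promoters as TATAAA. The Sp1 box common in housekeeping promoters was searched as GGGCGG, the Smad box as CAGAC, and NF-kB by its usual consensus.
Tgfb1, chr1:90324062-90324311 (plus strand): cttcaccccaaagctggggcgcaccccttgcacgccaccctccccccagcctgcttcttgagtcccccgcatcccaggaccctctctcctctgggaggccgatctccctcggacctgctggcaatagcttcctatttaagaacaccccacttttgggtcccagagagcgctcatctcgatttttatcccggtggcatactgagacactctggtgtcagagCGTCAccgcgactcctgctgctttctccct
Tgfb3, chr6:111456947-111457196 (minus strand): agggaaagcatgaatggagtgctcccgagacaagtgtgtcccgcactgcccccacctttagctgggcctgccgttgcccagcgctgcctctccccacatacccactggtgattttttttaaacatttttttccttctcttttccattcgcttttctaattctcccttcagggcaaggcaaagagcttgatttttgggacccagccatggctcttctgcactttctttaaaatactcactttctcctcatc
Ltbp1, chr6:26177302-26177551 (minus strand): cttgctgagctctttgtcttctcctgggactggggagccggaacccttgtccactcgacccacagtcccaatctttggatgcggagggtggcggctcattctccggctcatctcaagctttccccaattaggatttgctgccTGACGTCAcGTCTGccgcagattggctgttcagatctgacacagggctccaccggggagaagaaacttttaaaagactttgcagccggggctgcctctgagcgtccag
Ltbp2, chr6:110257299-110257548 (minus strand): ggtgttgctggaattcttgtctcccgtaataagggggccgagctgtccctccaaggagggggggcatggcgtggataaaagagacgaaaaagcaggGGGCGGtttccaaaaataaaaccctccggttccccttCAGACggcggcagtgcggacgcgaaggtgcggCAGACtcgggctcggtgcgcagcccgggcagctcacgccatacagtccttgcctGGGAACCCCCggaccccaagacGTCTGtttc
Tgfbr1, chr5:66449148-66449397 (plus strand): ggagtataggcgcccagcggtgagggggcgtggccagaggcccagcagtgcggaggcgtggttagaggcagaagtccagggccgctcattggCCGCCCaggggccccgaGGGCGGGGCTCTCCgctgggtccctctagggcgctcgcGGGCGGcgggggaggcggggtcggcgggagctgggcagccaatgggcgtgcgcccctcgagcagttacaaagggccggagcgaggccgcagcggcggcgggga
The window of Tgfb3 held none of the 7 motifs, and that of Tgfb1 held a single CRE core, 26 to 30 bases before the start. Ltbp1 had a full CRE at 101 to 108 bases before the start, a motif present in 1.59% of the 33469 rat windows of this length, and a Smad box beside it at 95 to 99 bases. Ltbp2 had 3 Smad boxes, which 42.9% of all windows hold at least once, together with 1 Sp1 box (30.5% of windows) and 1 NF-kB match (6.33% of windows) at 22 to 31 bases. Tgfbr1 had 3 Sp1 boxes and an NF-kB match at 128 to 137 bases that overlapped the Sp1 box at 136 to 141 bases. Its window was 75.6% G and C, against a median of 51.2% over all windows. The shares given here count windows with at least 1 match, so they give no rate for 3 boxes. The NF-kB matches stood before Tgfbr1, which rose, and Ltbp2, which fell. Only 1 start per gene was searched, and any part of the motif in these levels was not tested. Over all windows, CRE cores stood in 18.2%, AP-1 matches in 6.34% and TATA boxes in 12.9%, and neither AP-1 nor TATA matched any of the 10 members. These matches describe letters and no binding was measured.

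Library totals were 20873934 to 32090924 counts for control, 23193408 to 26836323 for IL-1β and 25643226 to 28698783 for LPS. On the second principal component (12.5% of the variance) LPS replicates 3 and 4 (24.7 and 21.3) lay apart from LPS replicates 1 and 2 (10.6 and 12.6), so results with LPS were also computed without replicates 3 and 4. Marker genes of the labelled cells were present but uneven. In control cultures Star, which carries cholesterol into mitochondria, stood at 141 CPM (read counts scaled to a common library total by the TMM method) and the steroidogenic factor gene Nr5a1 at 70.6 CPM, while Cyp17a1 (0.537 CPM) and Insl3 (0.229 CPM) were nearly absent. Of 9 theca-interstitial markers 7 rose and 0 fell with IL-1β, and 5 rose and 1 fell with LPS, and their summed level went from 329 to 362 CPM in control to 706 to 756 CPM and 558 to 610 CPM. Within that list Cyp17a1 stood at 15.5 CPM with IL-1β and 3.39 CPM with LPS, and Cyp11a1, the side-chain cleavage enzyme gene, went from 3.55 CPM to 75.1 and 31.7 CPM. Their part in the members' levels was not tested. Smooth muscle and fibroblast markers were also present. Summed control levels were 4841 to 5252 CPM over 8 smooth muscle genes and 9284 to 10339 CPM over 8 stromal genes. Fewer cells of a type and less RNA per cell cannot be told apart in such cultures. The lowest count of any member in any library was 352 (Smad7), so no member was near the floor. Counting error weighs more on Smad7 and Ltbp2 than on the other members, and was not separated from other spread. Levels are compared between groups for each gene and not between genes, because transcript lengths were not used.

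Of the 10 members, 4 were higher and 5 lower with IL-1β than in control, against 47.7% of all tested genes called in either direction (24.7% higher and 23.0% lower). Scaled by library size alone, 5 members were higher and 5 lower with IL-1β, and the share of higher genes among all calls went from 51.7% to 64.1%. With LPS, 3 were higher and 4 lower, against 42.5% of all genes (22.5% higher and 20.0% lower), and the same scaling left the members' counts as they were while the share of higher genes among calls went from 53% to 63.4%. Calls rest on an adjusted p under 0.05 in edgeR's quasi-likelihood test, without a minimum fold. Because the members were chosen with earlier results known, these counts are no test of the family. The median log2 fold change of the members was -0.04 with IL-1β and -0.02 with LPS, beside 0.01 over all genes in each comparison. Both comparisons share the 4 control libraries. For 9 members all IL-1β libraries lay on one side of all control libraries (44.2% of all genes), and the same held for LPS in 7 members (38.3% of all genes).

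**Figure D1:**
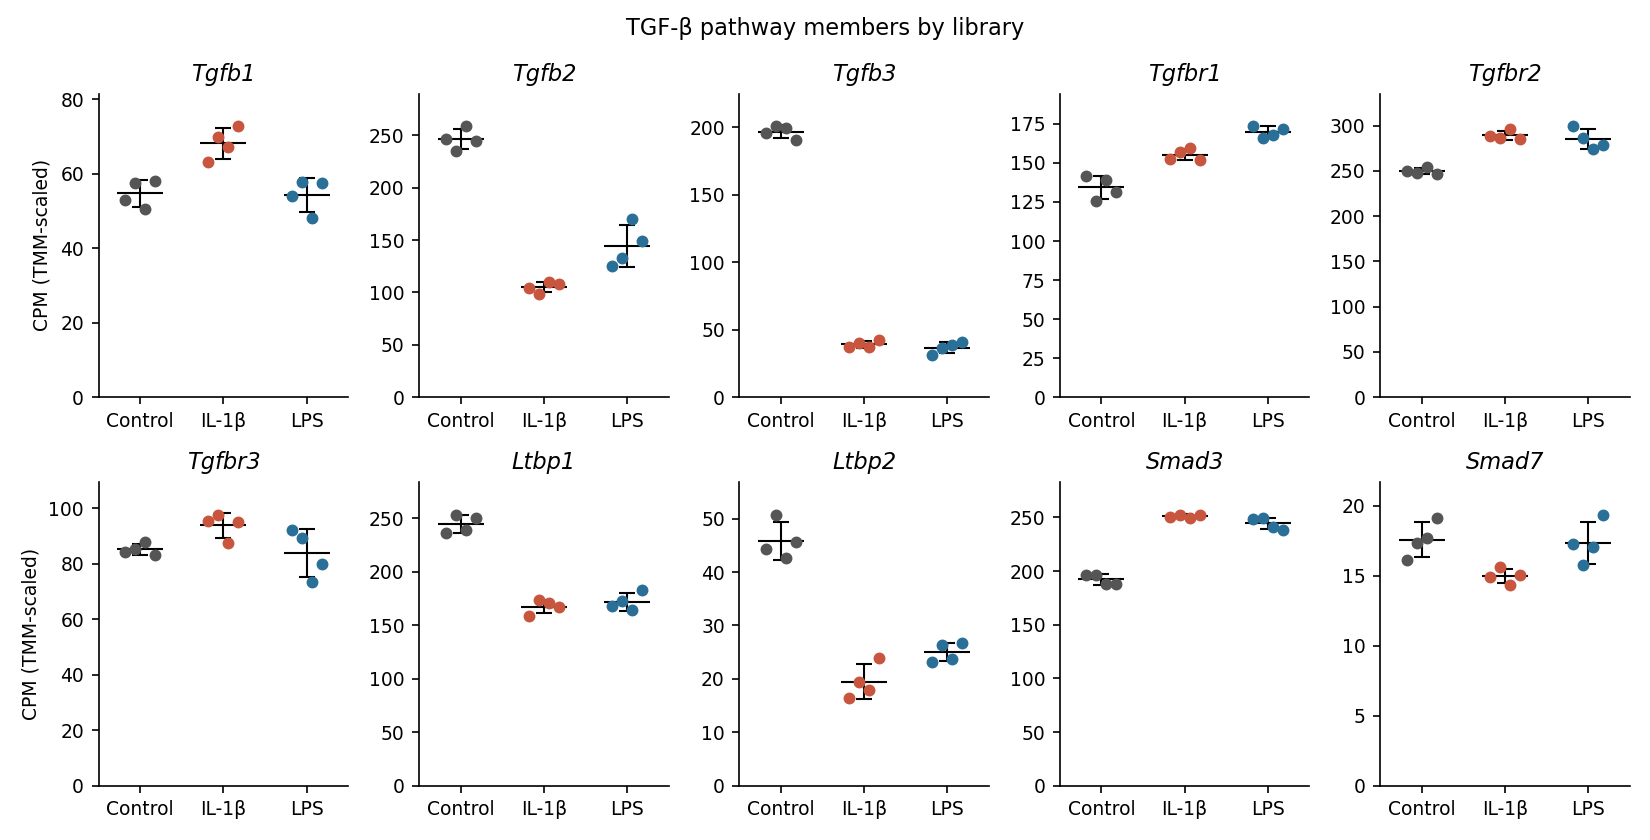
Each panel shows a member, with TMM-scaled CPM on a linear axis from 0, a point for each of the 4 libraries per group, and the mean with its SD as a bar. Tgfb3 stood between 190.4 and 201 CPM in control libraries and between 31.3 and 42.6 CPM in all 8 treated libraries, while Tgfb1 rose with IL-1β alone.

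The ligand genes did not move together. Tgfb3, whose product guides palate and lung development and is found in mesenchymal tissues, was the most changed member. It stood at 196, 201, 199 and 190.4 CPM in control replicates 1 to 4, at 37.1, 40.2, 37.2 and 42.6 CPM with IL-1β, and at 31.3, 36.4, 38.4 and 40.8 CPM with LPS. Every treated library was far below every control library, and the treated groups overlapped each other. The fall was 5.01-fold with IL-1β (log2 fold change -2.33 ± 0.06, SE, adjusted p = 1.24e-13) and 5.34-fold with LPS (-2.42 ± 0.06, adjusted p = 9.36e-14). Among 17330 genes, 29 had a lower log2 fold change than Tgfb3 with IL-1β and 26 with LPS.

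Tgfb2, which needs betaglycan (TGFBR3) for efficient receptor binding, also fell. Control libraries held 247, 235, 259 and 244 CPM, IL-1β libraries 104, 98.8, 109.7 and 108 CPM, and LPS libraries 125, 133, 170.1 and 149 CPM. The 3 groups did not overlap, and LPS replicates 3 and 4 were the highest of the treated libraries. Tgfb2 was 2.34-fold lower with IL-1β (-1.22 ± 0.09, adjusted p = 7.87e-07) and 1.71-fold lower with LPS (-0.77 ± 0.08, adjusted p = 3.23e-05). The level with LPS was 1.37-fold above that with IL-1β (0.45 ± 0.09, adjusted p = 0.0047). Without LPS replicates 3 and 4 this difference was 0.29 (adjusted p = 9.8e-06).

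Tgfb1, the ligand best known from immune regulation and wound repair, went the other way with IL-1β. Its libraries read 52.9, 57.5, 50.5 and 58.0 CPM in control, 63.0, 69.9, 67.1 and 72.8 CPM with IL-1β, and 54.0, 57.8, 48.0 and 57.5 CPM with LPS. All IL-1β libraries lay above all others, and the LPS range lay over that of control. The rise with IL-1β was 1.24-fold (0.31 ± 0.06, adjusted p = 4.27e-04), and with LPS the log2 fold change was -0.01 (95% interval -0.13 to 0.11, adjusted p = 0.908). Between the treatments Tgfb1 was 1.25-fold lower with LPS (-0.33 ± 0.06, adjusted p = 0.0011).

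These shifts changed the make-up of ligand transcripts. For each Tgfb3 read there were 0.253 to 0.305 Tgfb1 reads in control libraries, 1.70 to 1.80 with IL-1β and 1.25 to 1.72 with LPS. The ratio of Tgfb2 to Tgfb3 reads was 1.17 to 1.30 in control, 2.46 to 2.95 with IL-1β and 3.64 to 4.43 with LPS. Transcript lengths scale such ratios equally in every library, so the change between groups, but not the ratio itself, can be read.

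Marker lists of other cell types changed in both directions. Summed levels of endothelial and granulosa markers rose with both stimuli, as given below, and those of smooth muscle and macrophage markers fell. Of 8 surface epithelium markers 2 rose and 3 fell with each stimulus. Their summed level went from 36.5 to 38.8 CPM in control to 23.3 to 24.7 CPM with IL-1β and 19.0 to 25.2 CPM with LPS. Of 8 smooth muscle markers 7 fell with IL-1β and 1 rose, and 7 fell with LPS and 0 rose, with the summed level going from 4841 to 5252 CPM in control to 1591 to 1809 CPM with IL-1β and 1896 to 2145 CPM with LPS. Of 11 macrophage markers 8 fell and 1 rose with IL-1β, and 9 fell and 1 rose with LPS, from summed levels of 111 to 117 CPM to 57.8 to 62.3 CPM and 50.7 to 56.8 CPM. No marker in these lists was at 0 in all libraries. Macrophages make TGF-β1. Most of their markers fell with both stimuli, and Tgfb1 rose with IL-1β and was not called with LPS. The part of these cell types in the ligand levels was not tested.

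Profiles nearest to each ligand were searched among 11537 genes, by the root mean square distance of log2 CPM from the control mean over 12 libraries. Nearest to Tgfb3 were Actg2, the smooth muscle γ-actin (distance 0.181, Pearson r 0.989), Lmod1, an actin nucleator of smooth muscle (0.199, r 0.988), and Tmem204 (0.227, r 0.986). Their log2 fold changes were -2.38, -2.60 and -2.30 with IL-1β and -2.18, -2.34 and -2.11 with LPS. Nearest to Tgfb2 were Igfbp5, a binding protein of insulin-like growth factors (0.0946, r 0.985), the interferon-induced exonuclease gene Isg20 (0.0953, r 0.984) and Bdnf, a neurotrophin gene (0.124, r 0.989). Nearest to Tgfb1 were Mpst (0.0621, r 0.939), Acy3 (0.0636, r 0.943) and Slc22a17 (0.0684, r 0.930). All points of these correlations share the libraries and the 3 group means, so the values describe likeness alone.

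**Figure D2:**
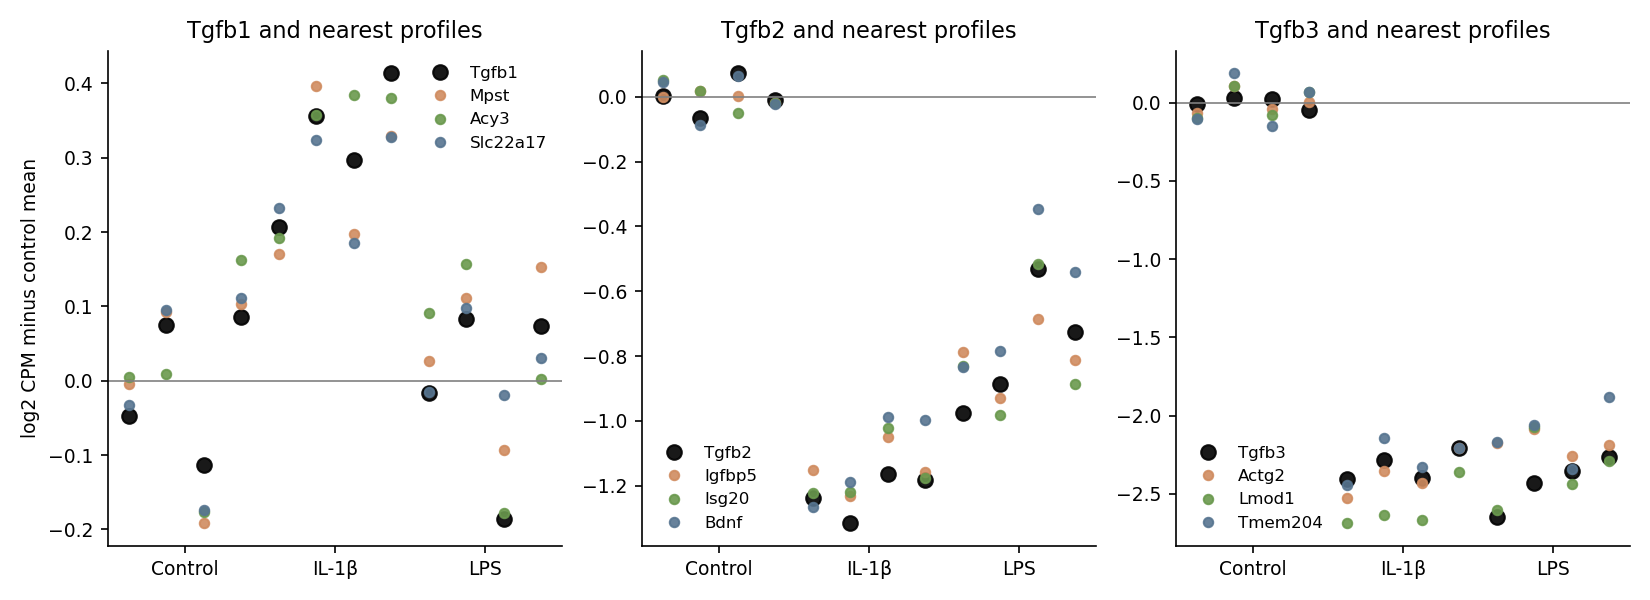
Log2 CPM minus the control mean is plotted for each ligand (black) and its 3 nearest genes, with 4 points per gene and group in the order of the labels, which has no meaning. Tgfb3 lay near Actg2, Lmod1 and Tmem204 in the treated libraries, Tgfb2 was lowest with IL-1β, and Tgfb1 rose with IL-1β alone.

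The signalling receptors rose slightly with both stimuli. Over all genes the median absolute log2 fold change was 0.166 with IL-1β and 0.148 with LPS. Tgfbr1, the type I receptor kinase ALK5, stood at 142, 126, 139 and 132 CPM in control, at 152, 157, 159 and 152 CPM with IL-1β and at 174, 166, 168 and 172 CPM with LPS. The 3 groups were stepped without overlap, control lowest and LPS highest. The rise was 1.15-fold with IL-1β (0.21 ± 0.03, adjusted p = 7.02e-06) and 1.26-fold with LPS (0.34 ± 0.03, adjusted p = 1.65e-09), and LPS exceeded IL-1β by 0.13 ± 0.03 (adjusted p = 0.00475).

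Tgfbr2, the type II receptor that binds TGF-β1 and TGF-β3 directly, stood at 249.7, 248, 254 and 247 CPM in control, at 289, 286, 296 and 286 CPM with IL-1β and at 299.5, 286, 274 and 279 CPM with LPS. Both treated groups lay above control and overlapped each other. The rise was 1.16-fold with IL-1β (0.21 ± 0.03, adjusted p = 3.77e-07) and 1.14-fold with LPS (0.19 ± 0.03, adjusted p = 2.79e-06). Between the treatments the log2 fold change was -0.02, with a 95% interval from -0.08 to 0.03 (adjusted p = 0.639).

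Tgfbr3 encodes betaglycan, the co-receptor that presents TGF-β2 and also binds inhibin. Libraries held 84.2, 85.1, 87.8 and 83.2 CPM in control, 95.3, 97.7, 87.3 and 95.1 CPM with IL-1β, and 92.2, 89.3, 73.5 and 79.7 CPM with LPS. IL-1β replicate 3 fell inside the control range, and LPS libraries lay on both sides of it. The log2 fold change with IL-1β was 0.14 ± 0.06 (adjusted p = 0.067), and the gene passed the threshold without IL-1β replicate 3 (0.18), LPS replicate 1 (0.14) or LPS replicate 3 (0.14). With LPS it was -0.02 (95% interval -0.14 to 0.10, adjusted p = 0.809). LPS minus IL-1β was -0.16 ± 0.06 (adjusted p = 0.0681), which passed without IL-1β replicate 3 (-0.20), LPS replicate 1 (-0.21) or LPS replicate 2 (-0.20). Without LPS replicates 3 and 4 together it was -0.047 (adjusted p = 0.533).

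Nearest in profile to Tgfbr1 were Ptbp3, a splicing regulator gene (distance 0.0339), Map4k4, a kinase gene (0.0432), and Gpm6b (0.0462). Those nearest to Tgfbr2 were Pnisr (0.0350), Nemf (0.0356) and Dazap2 (0.0359), and those nearest to Tgfbr3 were Ptar1 (0.0485), B3galtl (0.0571) and Btd (0.0579). Genes picked by this distance must have log2 fold changes near those of the receptors. Those of these 9 genes ran from 0.09 (B3galtl) to 0.25 (Gpm6b) with IL-1β. With LPS they ran from -0.06 (B3galtl) to 0.36 (Gpm6b).

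Both binding protein genes fell. Ltbp1, whose product carries latent TGF-β into the matrix, stood at 236, 253, 239 and 250.5 CPM in control, at 159, 173, 170.5 and 167 CPM with IL-1β and at 168, 172, 164 and 183 CPM with LPS. Both treated groups lay below control and overlapped each other. It was 1.46-fold lower with IL-1β (-0.55 ± 0.03, adjusted p = 3.08e-13) and 1.42-fold lower with LPS (-0.51 ± 0.03, adjusted p = 1.68e-12), with 0.04 between the treatments (95% interval -0.03 to 0.11, adjusted p = 0.479).

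Ltbp2, a family member that associates with elastic fibres and is not known to bind latent TGF-β, fell more steeply. Its control libraries held 44.3, 50.8, 42.6 and 45.6 CPM, its IL-1β libraries 16.43, 19.49, 17.96 and 23.98 CPM and its LPS libraries 23.2, 26.3, 23.8 and 26.8 CPM. All treated libraries were below all control libraries, and IL-1β replicate 4 reached into the LPS range. The gene was 2.36-fold lower with IL-1β (-1.24 ± 0.10, adjusted p = 2.27e-07) and 1.83-fold lower with LPS (-0.87 ± 0.09, adjusted p = 5.94e-06). LPS was 0.37 ± 0.10 above IL-1β (adjusted p = 0.0225), a call lost without IL-1β replicate 2 (0.37, adjusted p = 0.0548), IL-1β replicate 3 (0.33, adjusted p = 0.0648), LPS replicate 2 (0.35, adjusted p = 0.058) or LPS replicate 4 (0.34, adjusted p = 0.0623).

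The Smad genes differed. Smad3, the receptor-activated mediator that enters the nucleus, stood at 196, 197, 188 and 188 CPM in control, at 250.4, 253, 249 and 252 CPM with IL-1β and at 249, 249, 241 and 238 CPM with LPS. Both treated groups were above control and close to each other. The rise was 1.31-fold with IL-1β (0.39 ± 0.03, adjusted p = 1.09e-12) and 1.27-fold with LPS (0.35 ± 0.03, adjusted p = 1.33e-11), and LPS minus IL-1β was -0.04 (95% interval -0.09 to 0.01, adjusted p = 0.317).

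Smad7 encodes the inhibitory Smad that recruits ubiquitin ligases to the receptor. It stood at 16.1, 17.4, 17.7 and 19.2 CPM in control and at 14.9, 15.6, 14.4 and 15.0 CPM with IL-1β. With LPS it stood at 17.3, 15.8, 17.0 and 19.4 CPM. IL-1β libraries were below all others, while LPS and control overlapped. The fall with IL-1β was 1.17-fold (-0.23 ± 0.07, adjusted p = 0.00523), and with LPS the log2 fold change was -0.02 (95% interval -0.14 to 0.11, adjusted p = 0.856). LPS minus IL-1β was 0.21 ± 0.07 (adjusted p = 0.0208), a call lost without IL-1β replicate 3 (0.19, adjusted p = 0.0656) or LPS replicate 4 (0.16, adjusted p = 0.118).

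**Figure D3:**
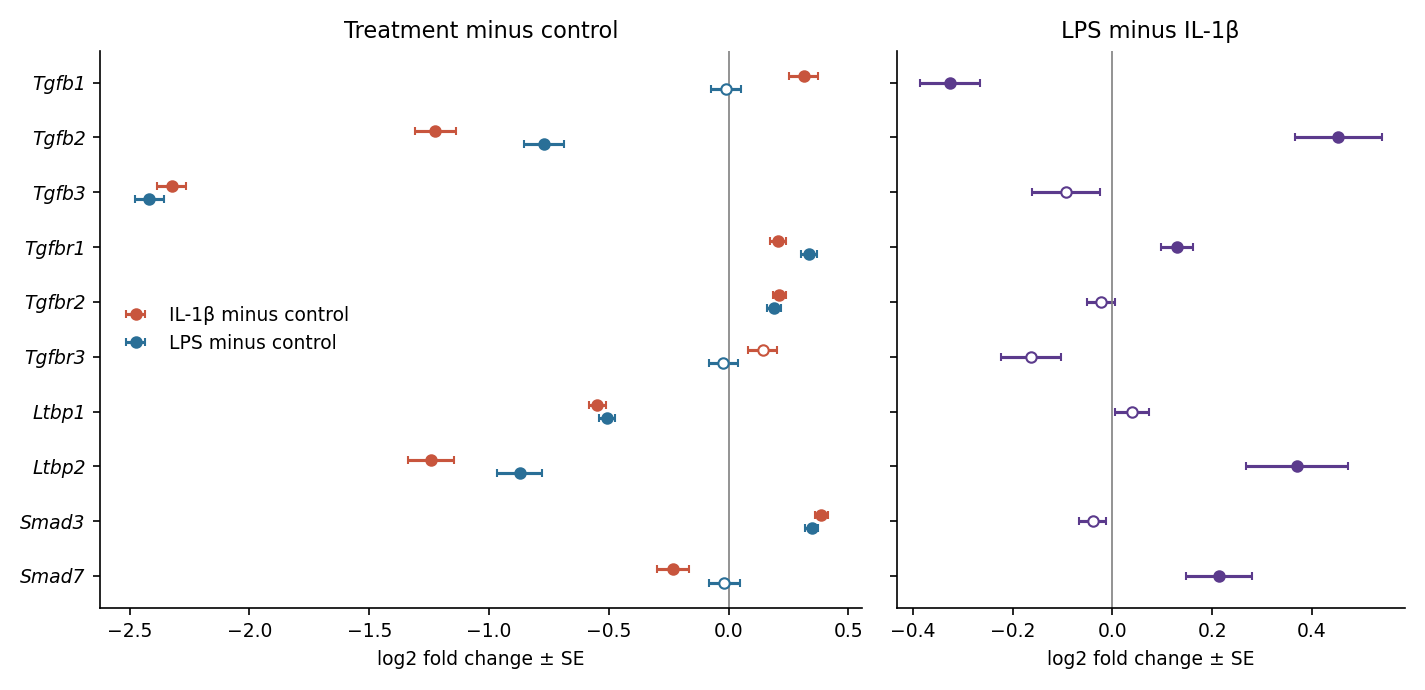
Log2 fold changes with their SE are drawn for each member, on the left for each treatment minus control and on the right for LPS minus IL-1β on a scale of its own; filled points passed an adjusted p under 0.05. Tgfb3 lies at -2.33 and -2.42, Tgfbr1, Tgfbr2 and Smad3 lie above 0 by less than 0.4 with both stimuli, and the right panel spans -0.33 (Tgfb1) to 0.45 (Tgfb2).

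Comparing LPS with IL-1β directly, 5 members differed: Tgfb2, Tgfbr1, Ltbp2 and Smad7 were higher and Tgfb1 lower with LPS. That was against 21.9% of all genes called (11.3% higher, 10.6% lower). The libraries of the treatments did not overlap for 5 members (21.6% of all genes), among them Smad3, which did not pass the test, and not Ltbp2, which did. Without LPS replicate 4 only 3 members were called, and without both LPS replicates 3 and 4 there were 4, with Tgfb3 added (-0.21, adjusted p = 0.0231) and both Ltbp2 (0.35, adjusted p = 0.157) and Smad7 (0.14, adjusted p = 0.259) lost. Over all genes the number called went from 3791 to 1979 without these libraries.

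Genes that store or release latent TGF-β went both ways. Of 22 such genes, all tested, 7 rose and 11 fell with IL-1β (median log2 fold change -0.13, or -0.077 with library size alone) and 8 rose and 12 fell with LPS (-0.16). Over all genes 24.7% were higher and 23.0% lower with IL-1β, and 22.5% and 20.0% with LPS. Integrin β chains that pair with αv and bind the latent complex were split, with more called lower than higher. Named after their values were seen, Itgb3 fell with IL-1β and LPS (-0.75 ± 0.04 and -0.63 ± 0.04) and Itgb6 was not called (-0.72 ± 0.33 and -0.38 ± 0.30). Itgb8 rose by 1.06 ± 0.06 and 0.98 ± 0.05 with IL-1β and LPS, while Itgb5 (-0.61 ± 0.03 and -0.67 ± 0.03) and the widely shared Itgb1 (-0.76 ± 0.03 and -0.65 ± 0.03) fell. Thbs1, the gene of thrombospondin 1, which can free the ligand from its propeptide, rose from 2492 ± 65.4 CPM (SD, n = 4) to 3468 ± 117 CPM with IL-1β and 3824 ± 221 CPM with LPS. Its relative Thbs2 rose by 1.15 ± 0.06 and 0.76 ± 0.06. The remaining binding protein genes, named after their values were seen, were Ltbp4, which fell with both (-0.69 ± 0.07 and -0.72 ± 0.07), and Ltbp3, at -0.07 ± 0.04 with IL-1β (adjusted p = 0.164) and lower with LPS (-0.18 ± 0.04).

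Other receptors and Smad regulators went both ways. Of 27 tested of 28, 4 rose and 12 fell with IL-1β (median -0.09), and 7 rose and 12 fell with LPS (-0.07), or 7 lower with LPS where libraries were scaled by size alone. Those calls stand beside 47.7% of all genes called with IL-1β and 42.5% with LPS. The medians moved to -0.044 with IL-1β and -0.035 with LPS under that scaling, and the first to -0.061 without IL-1β replicate 1. Eng, the gene of the co-receptor endoglin, fell with both (-0.60 ± 0.03 and -0.58 ± 0.03), and Acvrl1, a type I receptor of endothelium, rose (0.57 ± 0.06 and 0.43 ± 0.06). Both are typical of endothelial cells, whose 8 markers all rose with IL-1β and rose in 7 cases with LPS, from summed levels of 156 to 184 CPM to 329.6 to 382 CPM and 232 to 314 CPM. No endothelial marker was at 0 in all libraries, and their part in these receptor levels was not tested. Tgif1, a co-repressor of Smads, rose (0.49 ± 0.04 and 0.55 ± 0.04). Smurf2, a ubiquitin ligase that works with SMAD7, fell (-0.30 ± 0.03 and -0.20 ± 0.03), as did Pmepa1, a TGF-β target that restrains Smad activation (-0.37 ± 0.07 and -0.55 ± 0.07). Usp15, a deubiquitinase of the receptor complex, fell with IL-1β (-0.36 ± 0.04) and by less with LPS (-0.12 ± 0.04, adjusted p = 0.0109). The call with LPS was lost without control replicate 3 (-0.09, adjusted p = 0.0661) and with library size alone (-0.08, adjusted p = 0.0785).

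Known TGF-β response genes were lower more often than higher. Of 34 tested, 17 fell and 9 rose with IL-1β (median -0.22, beside 0.01 over all genes), and 20 fell and 7 rose with LPS (-0.38, beside 0.01). Over all genes 23.0% were lower and 24.7% higher with IL-1β, and 20.0% lower and 22.5% higher with LPS. Like the members, all the pathway lists were chosen with earlier results known, so their counts and medians are no test of the pathway. Loxl2, a collagen crosslinking enzyme gene, went from 264 ± 8.08 CPM to 125 ± 1.68 CPM with IL-1β and 129 ± 1.93 CPM with LPS (SD, n = 4). Tagln, an actin-binding protein gene of contractile cells, went from 2380 ± 69.4 CPM to 733 ± 31.7 and 943 ± 53.9 CPM, and Tpm1, a tropomyosin gene, fell too (-0.75 ± 0.03 and -0.66 ± 0.03, log2 fold change). Junb, an AP-1 gene that TGF-β and many other signals induce, rose (0.89 ± 0.04 and 0.84 ± 0.04). Of classic targets named after their values were seen, Ctgf (-1.43 ± 0.06 and -1.07 ± 0.06) and Tgfbi (-1.36 ± 0.12 and -1.64 ± 0.12) fell with both, while Klf10 (0.54 ± 0.04 and 0.43 ± 0.04) and the cytokine gene Il11 (1.45 ± 0.26 and 0.85 ± 0.28) rose with both. Fn1, the fibronectin gene, was at -0.09 ± 0.04 with IL-1β (adjusted p = 0.0835) and rose with LPS (0.22 ± 0.04). The list shares 3 genes with the smooth muscle markers (Acta2, Cnn1 and Tagln), whose summed level fell as given above. It shares 2 more with the 8 stromal fibroblast markers (Col1a1 and Col3a1), of which 3 rose and 4 fell with IL-1β and 3 rose and 5 fell with LPS. The summed stromal level went from 9284 to 10339 CPM in control to 7916 to 8942 CPM with IL-1β and 6531 to 7583 CPM with LPS. The shared genes Col1a1 and Col3a1 made up most of that sum. In control, IL-1β and LPS cultures Col1a1 stood at 4772, 3337 and 2676 CPM and Col3a1 at 3262, 3333 and 2769 CPM. Of the other stromal markers, Pdgfra went from 183 to 319 and 365 CPM and Pdgfrb from 427 to 317 and 294 CPM. Acta2 (1982, 652 and 782 CPM) and Tagln likewise made up most of the smooth muscle sum. No stromal marker was at 0 in all libraries, and the part of either cell type in the counts was not tested.

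The activin and inhibin branch of the family, which uses related receptors and in the ovary feeds into pituitary control, was mixed. Of 9 genes tested of 12, 4 rose and 3 fell with IL-1β (median 0.14), and 2 rose and 2 fell with LPS (-0.0048), beside 47.7% and 42.5% of all genes called. The IL-1β median was 0.25 without control replicate 1 and 0.020 without control replicate 3, and the LPS median ranged from -0.076 to 0.090 with 1 library left out. Acvr1b, the activin type I receptor ALK4, rose from 19.4 ± 1.08 CPM to 38.4 ± 1.01 CPM with IL-1β and 40.0 ± 1.19 CPM with LPS (SD, n = 4). Inha, the inhibin α subunit gene, went from 280 ± 19.3 CPM to 536 ± 66.3 CPM with IL-1β (0.94 ± 0.12) and 369 ± 49.7 CPM with LPS (0.40 ± 0.12, adjusted p = 0.0199, not called without control replicate 1, at 0.36, or LPS replicate 1, at 0.32). Without either of these libraries 1 gene of the branch rose with LPS. Inha is also a granulosa marker, and 5 of 7 granulosa markers rose and 1 fell with IL-1β, and 4 rose and 1 fell with LPS. Their summed level, which includes Inha itself, went from 1028 to 1068 CPM to 1541 to 1774 CPM and 1298 to 1474 CPM. Inha and Gja1 (668, 996 and 925 CPM in control, IL-1β and LPS) made up most of that sum. Nr5a2 stood at 39.8, 72.4 and 59.0 CPM, Foxl2 at 55.1, 58.4 and 53.3 CPM, and Amh at 1.61, 0.694 and 0.646 CPM. No granulosa marker was at 0 in all libraries, and the part of granulosa cells in the level of Inha was not tested. Fstl3, a binding protein that neutralises activin, fell (-1.09 ± 0.09 and -1.21 ± 0.09), as did Gdf11 (-0.33 ± 0.06 and -0.21 ± 0.05). Fst, the follistatin gene, named after its values were seen, rose with IL-1β (0.46 ± 0.14, adjusted p = 0.0196). With LPS it was not called (-0.05 ± 0.14). The inhibin β subunit genes, also named afterwards, were split with IL-1β: Inhbb rose (1.17 ± 0.28) and Inhba fell (-0.38 ± 0.08). Neither was called with LPS.

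**Figure D4:**
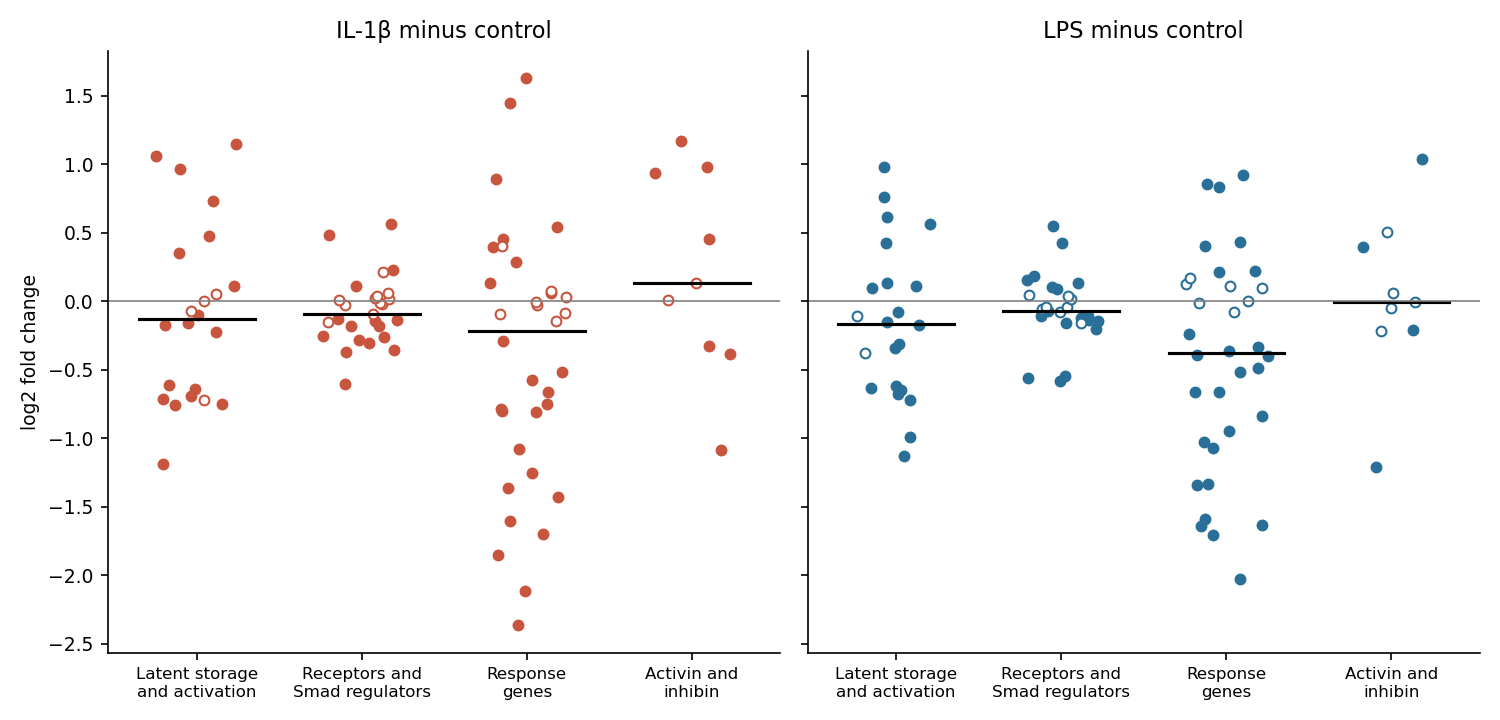
Each point is the log2 fold change of a gene against control, in 4 lists, with IL-1β on the left and LPS on the right; filled points passed an adjusted p under 0.05 and black lines are list medians. Response genes reach from -2.37 to 1.63 with IL-1β and have the lowest median of the 4 lists in each panel (-0.22 and -0.38).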

How the data were processed

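Transcripts were measured in 12 libraries made with a stranded mRNA kit, per the labels' protocols. The authors deposited counts of reads for each gene symbol, a column per library, without normalization. TopHat2 2.1.1, SAMtools and DESeq2 are named with the rat genome build Rnor_6.0, per the submitters' processing notes. The counting program, the annotation and the use of strand are not given in the sources used here, so reads of overlapping antisense genes cannot be told apart.

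Counts were tested in R 4.3.3 with edgeR 4.0.16: filterByExpr, TMM scaling, a model of the 3 groups over 12 libraries (glmQLFit, robust) and two-sided quasi-likelihood F-tests, adjusted by Benjamini-Hochberg over 17330 genes. An SE is the absolute log2 fold change divided by the square root of F, and 95% intervals are normal intervals from it. The log2 CPM used for profiles had a prior count of 2. The procedure was tested on simulated data. Alternatives included DESeq2 1.42.0, other scalings and left-out libraries. Each list names the 4 genes with the smallest p in each treatment, and each ligand and receptor its 3 nearest profiles among genes of at least 2 CPM. Of 96 listed pathway genes 96 matched a row, Ccn2 as Ctgf. Hsd3b1 was not used here. Promoter windows of 10 of 10 members are from RefSeq (GRCr8), and coordinates were not joined to the counts. The members and lists were chosen with earlier results of these data known.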

Additional observations from a re-analysis of the deposited data

How the results depend on the processing

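Of 570 values of the 10 members over 3 comparisons and 19 alternatives, 533 kept their direction and their side of the threshold, 16 newly passed it, 8 no longer passed and 13 changed sign, all of these last with neither value called. Tgfbr3 with IL-1β passed with library size alone (0.19), no low-count filter (0.14), DESeq2 (0.13), 8 libraries (0.14), and without LPS replicates 3 and 4 (0.14, chosen after seeing the data), and ranged from 0.12 to 0.18 with 1 library left out. Tgfbr3 between the treatments passed with no filter (-0.16) and DESeq2 (-0.16), with -0.21 to -0.11 with 1 library left out. Against control, sign changes with LPS were seen with library size alone for Tgfb1 (0.028), Tgfbr3 (0.018) and Smad7 (0.021). They were also seen with 1 library left out, where Tgfb1 ranged from -0.044 to 0.042, Tgfbr3 from -0.071 to 0.035 and Smad7 from -0.075 to 0.030. Without LPS replicates 3 and 4 together, Tgfb1 was 0.029 and Tgfbr3 0.095 against control, and between the treatments Tgfb3 was -0.21, Tgfbr2 0.019, Tgfbr3 -0.047, Ltbp2 0.35 and Smad7 0.14. That setting gave 1979 genes called between the treatments. With 1 library left out, Ltbp2 ranged from 0.30 to 0.48, Smad7 from 0.16 to 0.26 and the number of members called from 3 to 6 in that comparison. Scaling by library size, which shifted the split of higher and lower calls as given above, put the all-gene medians at 0.060 and 0.049. That scaling and DESeq2 size factors reversed no called member. Whether replicate numbers pair the samples cannot be decided from so few libraries. Deviations of same-numbered libraries correlated weakly, at -0.03 to 0.04 for IL-1β with control. They were at 0.01 to 0.05 for LPS with control and at 0.01 to 0.12 for LPS with IL-1β. In these 3 comparisons 1, 3 and 2 of 4 libraries correlated best with their own number. With a replicate block 10, 7 and 6 members were called in place of 9, 7 and 5, with Tgfbr3 added with IL-1β (0.14) and between the treatments (-0.17), and 8544, 7730 and 4256 genes in all. The cause of these changes was not tested. All members had at least 352 counts in every library.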
